A study of Mus musculus with 14 samples.

Results

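Ccl5, Cxcl9, Cxcl10, Cxcl16 and Ccl8, which encode chemokines that draw lymphocytes and other leukocytes into tissue, and Cxcr3 and Cxcr6, which encode receptors for some of them, were followed in mouse tumours treated with an ACSS2 inhibitor. The genes were taken by name, with earlier results of these data known. They were 7 of the 51789 genes in the count table. All 7 were among the 17294 genes with enough counts to be tested. Levels are given as CPM, counts scaled to the total of the library.

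Bulk tumour tissue gave 14 libraries of polyadenylated RNA, prepared with Lexogen's QuantSeq kit, which samples transcripts at their 3′ ends. Mice of 2 strains, labelled NGS mouse and C57BI/6 mouse (NGS and C57BI6 below), carried the tumours and received vehicle or ACSS2i, which blocks ACSS2, the enzyme that turns acetate into acetyl-CoA. There were 3 libraries per group in NGS and 4 per group in C57BI6, numbered as in the labels. The series title places the study in triple negative breast cancer; the sources used here do not give the tumour line, the mice's age and genotype, the immune status of the NGS strain, the dose or the duration, and no library is labelled with the Bmal1 status that the series' design line names.

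Chemokines are small secreted proteins that guide migrating cells through G protein-coupled receptors. Cxcl9 and Cxcl10, together with Cxcl11, bind Cxcr3 on activated T cells and natural killer cells, and interferons induce all of them. Ccl5 attracts T cells and myeloid cells, Cxcl16 is a membrane-bound or shed ligand of Cxcr6, and Ccl8 is one of the monocyte chemoattractant proteins, whose receptors differ between mouse and human.

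Cxcl9 and Cxcl10 lie beside each other on chromosome 5, with 18.6 kb between them, and were the 2 members whose promoters held any of the motifs searched. The promoters of Cxcl9 (chr5:92328030-92328329, minus strand), Cxcl10 (chr5:92348840-92349139, minus strand) and Ccl8 (chr11:82114935-82115234, plus strand) are shown because levels of the first pair and of the third differed in opposite directions between the strains. They run from 250 bases before to 50 bases after the start that RefSeq annotates on GRCm38.p6, 5′ to 3′ along the gene, with motif matches in capitals:
Cxcl9: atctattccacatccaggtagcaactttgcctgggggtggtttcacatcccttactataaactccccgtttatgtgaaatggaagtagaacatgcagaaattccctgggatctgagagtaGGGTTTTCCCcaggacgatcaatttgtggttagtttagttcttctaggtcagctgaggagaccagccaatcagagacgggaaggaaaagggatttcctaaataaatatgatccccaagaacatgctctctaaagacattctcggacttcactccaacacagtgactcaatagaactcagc
Cxcl10: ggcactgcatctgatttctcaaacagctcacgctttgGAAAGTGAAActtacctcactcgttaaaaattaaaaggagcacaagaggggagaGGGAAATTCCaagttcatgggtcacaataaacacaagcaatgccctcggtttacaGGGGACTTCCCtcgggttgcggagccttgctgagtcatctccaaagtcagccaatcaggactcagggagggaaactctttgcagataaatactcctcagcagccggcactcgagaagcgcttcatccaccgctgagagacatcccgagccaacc
Ccl8: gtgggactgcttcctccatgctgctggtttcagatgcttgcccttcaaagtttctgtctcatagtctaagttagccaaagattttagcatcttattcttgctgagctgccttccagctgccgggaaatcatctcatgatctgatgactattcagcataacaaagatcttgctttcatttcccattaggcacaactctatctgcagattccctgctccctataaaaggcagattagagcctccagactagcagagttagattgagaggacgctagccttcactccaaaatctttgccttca
Each was searched on both strands for 3 motifs. They were the core of the interferon-stimulated response element (GAAA, 2 bases of any kind and GAAA), the palindrome that STAT dimers bind (TTCNNNGAA), and a form of the NF-kB site (GGG, 3 bases of any kind, T, 1 base of any kind and CC). The Cxcl9 promoter held 1 NF-kB-type match, with its first base at -130, where -1 is the base just before the start. The Cxcl10 promoter held an interferon-type match at -213, an NF-kB-type match at -159 and overlapping NF-kB-type matches at -104 and -103. No match was found in these windows for Ccl8, Cxcr3 or Cxcr6. Other forms of these sites were not searched, so a promoter without a match, or Cxcl9 without an interferon-type or STAT-type match, may still hold one. Of 32851 promoters of the same length, 3.44% held the interferon-type motif, 8.30% the STAT-type motif and 17.4% the NF-kB-type motif. Sequences for Ccl5 and Cxcl16 were not in the table used, so 5 of the 7 members were searched.

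Depth followed the strain. Library totals ran from 2.85 to 4.70 M counts in NGS and from 17.6 to 20.3 M in C57BI6, so depth and strain cannot be told apart. In the NGS vehicle and NGS ACSS2i groups 3 counts correspond to 0.226 and 0.289 CPM, and in the C57BI6 vehicle and ACSS2i groups to 0.0403 and 0.0387 CPM, the most that a group with no count allows for counting error alone. The first principal component (59.6% of the variance) separated the strains, and the second set NGS ACSS2i 2 apart. Acss2 itself, the gene of the inhibited enzyme, had log2 fold changes of 0.10 ± 0.32 (SE) in C57BI6 and 0.10 ± 0.43 in NGS (edgeR adjusted p = 0.994 and 0.936). Krt8, a keratin of simple epithelia, stood at 187 to 380 CPM in every library, whereas the epithelial adhesion gene Epcam stayed between 0 and 4.04 CPM. The labels do not say whether libraries came from separate animals, so p-values measure only the spread between these libraries.

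**Figure D1:**
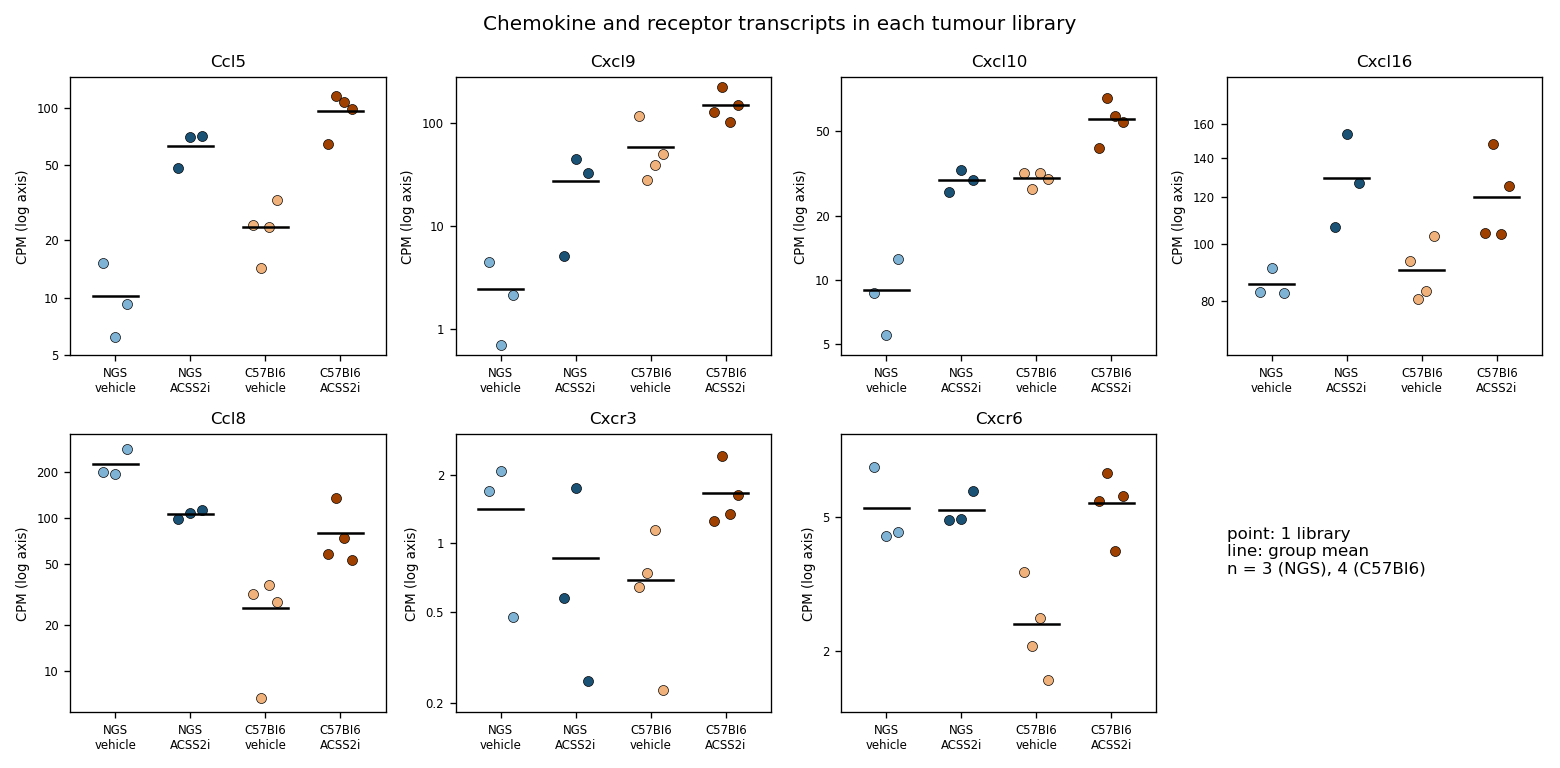
Level of each chemokine or receptor gene in CPM (log axis) in every library of the 4 groups; points are libraries and lines are group means. Ccl5 and Cxcl10 libraries given the inhibitor sat above all vehicle libraries of the same strain, and Ccl8 libraries given the inhibitor sat below vehicle in NGS and above it in C57BI6.

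Ccl5 rose in both strains. It lies on chromosome 11 (83525778 to 83530518 in mm10, minus strand, ENSMUSG00000035042). In C57BI6 the vehicle libraries 1 to 4 held 24.1, 14.3, 23.5 and 32.6 CPM and the ACSS2i libraries 64.4, 115, 107 and 97.8 CPM. In NGS the vehicle libraries 1 to 3 held 15.3, 6.22 and 9.27 CPM and the ACSS2i libraries 48.2, 70.3 and 70.6 CPM. Treated and vehicle libraries did not overlap in either strain, and the lowest treated library of either strain was above the highest vehicle library of both. The means went from 23.6 ± 7.49 to 96.2 ± 22.4 CPM in C57BI6 (SD, n = 4 each), which made 1.96 ± 0.26 on the log2 scale (SE; 3.90-fold; edgeR adjusted p = 0.00344). In NGS they went from 10.3 ± 4.63 to 63.0 ± 12.9 CPM (n = 3 each), or 2.57 ± 0.34 on that scale (5.93-fold; edgeR adjusted p = 0.00395). The test also passed with each of the 14 libraries left out in turn, with adjusted p from 0.00292 to 0.0233 in C57BI6 and from 0.00132 to 0.0226 in NGS. The NGS call was lost by limma voom with sample quality weights (2.73, adjusted p = 0.0514). It was also lost without the 4 libraries richest in skeletal muscle genes, a fit with 1 NGS vehicle library (2.03). The C57BI6 call was lost with the replicate number added to the edgeR model as a block (1.98, adjusted p = 0.0597).

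Cxcl10 rose in NGS, while its C57BI6 difference came just short of the threshold. It lies on chromosome 5 (92346638 to 92348889, minus strand, ENSMUSG00000034855). NGS vehicle libraries 1 to 3 held 8.72, 5.53 and 12.6 CPM and NGS ACSS2i libraries 25.8, 32.7 and 29.5 CPM. C57BI6 vehicle libraries 1 to 4 held 31.6, 26.8, 31.6 and 29.7 CPM and C57BI6 ACSS2i libraries 41.8, 71.4, 58.6 and 55.0 CPM. The groups did not overlap in either strain, and the treated NGS libraries overlapped the C57BI6 vehicle libraries, at means of 29.3 ± 3.44 and 29.9 ± 2.26 CPM. The log2 fold change was 1.67 ± 0.25 in NGS (3.18-fold; edgeR adjusted p = 0.00575) and 0.86 ± 0.18 in C57BI6 (1.81-fold; edgeR adjusted p = 0.0544). In NGS the call held with each of the 14 libraries left out, and was lost by limma voom (adjusted p = 0.0561) and in a fit of the NGS libraries alone (adjusted p = 0.103). In C57BI6 the gene passed by DESeq2 (adjusted p = 3.52e-04), by limma voom (0.00525) and in a fit of the C57BI6 libraries alone (0.0170), and without NGS vehicle 2 or 3, NGS ACSS2i 1 or 2, or C57BI6 ACSS2i 1 (adjusted p from 0.0313 over all 14 such fits, with 0.243 as the highest).

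Cxcl9 rose in NGS, with a wide spread between libraries of the same group. It lies on chromosome 5 (92321347 to 92328079, minus strand, ENSMUSG00000029417). In NGS vehicle libraries 1 to 3 it stood at 4.47, 0.691 and 2.14 CPM, and in NGS ACSS2i libraries at 5.16, 45.0 and 33.0 CPM. C57BI6 vehicle libraries 1 to 4 held 116, 27.9, 39.2 and 50.2 CPM and C57BI6 ACSS2i libraries 130, 224, 102 and 149 CPM. In NGS the groups did not overlap, though ACSS2i 1 was near vehicle 1, and in C57BI6 vehicle 1 was above ACSS2i 3. Cxcl9 rose in NGS by 3.43 ± 0.81 on the log2 scale (edgeR adjusted p = 0.0404), from 33 counts in all vehicle libraries to 279. In C57BI6 the log2 fold change was 1.32 ± 0.48 (edgeR adjusted p = 0.409). The NGS call rested on single libraries: it was lost without any 1 of NGS vehicle 1, 2 or 3, NGS ACSS2i 2 or 3, C57BI6 vehicle 3 or 4, or C57BI6 ACSS2i 1, 3 or 4 (adjusted p up to 0.129). It was also lost by limma voom (0.382) and with NGS libraries alone (0.164).

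Cxcl16 differed little, and no call was made. It lies on chromosome 11 (70453983 to 70459984, minus strand, ENSMUSG00000018920). C57BI6 vehicle libraries 1 to 4 held 93.5, 80.6, 83.1 and 103 CPM and C57BI6 ACSS2i libraries 104, 148, 104 and 125 CPM. NGS vehicle libraries 1 to 3 held 82.7, 90.8 and 82.5 CPM and NGS ACSS2i libraries 107, 154 and 127 CPM. Treated libraries were above vehicle in both strains without overlap, by less than 1 CPM in C57BI6. The log2 fold change was 0.36 ± 0.13 in C57BI6 (95% interval 0.075 to 0.64, edgeR adjusted p = 0.419) and 0.55 ± 0.16 in NGS (0.22 to 0.89, adjusted p = 0.0659). The NGS difference passed by DESeq2 (adjusted p = 0.0137) and without NGS ACSS2i 1 (0.0202).

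Ccl8 differed from vehicle in opposite directions in the strains. It lies on chromosome 11 (82115185 to 82116799, plus strand, ENSMUSG00000009185), 1409 kb from Ccl5. NGS vehicle libraries 1 to 3 held 203, 194 and 285 CPM and NGS ACSS2i libraries 98.9, 109 and 113 CPM. C57BI6 vehicle libraries 1 to 4 held 31.8, 6.73, 36.9 and 28.6 CPM and C57BI6 ACSS2i libraries 58.4, 136, 74.4 and 53.2 CPM. Every treated library was below vehicle in NGS and above vehicle in C57BI6, a pattern of non-overlap that 48 of the 17294 genes (0.278%) showed. The log2 fold change was -1.13 ± 0.45 in NGS (edgeR adjusted p = 0.166) and 1.56 ± 0.39 in C57BI6 (adjusted p = 0.136), and neither passed. The difference between these effects, C57BI6 minus NGS, was 2.69 ± 0.60, which did not pass after adjustment over all genes (edgeR adjusted p = 0.171) but did by DESeq2 (0.0150). By DESeq2 and limma voom the C57BI6 effect passed as well (adjusted p = 0.0350 and 0.0404).

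The receptor gene Cxcr3 was near the lower end of what could be measured in NGS. It (chromosome X, 101731535 to 101734269, minus strand, ENSMUSG00000050232) had 1 to 9 counts in each NGS library and 4 to 49 in each C57BI6 library. In C57BI6 vehicle libraries 1 to 4 these made 0.642, 0.742, 1.15 and 0.227 CPM, and in C57BI6 ACSS2i libraries 1.25, 2.41, 1.35 and 1.63 CPM. In NGS vehicle libraries 1 to 3 they made 1.70, 2.07 and 0.475 CPM, and in NGS ACSS2i libraries 0.574, 1.76 and 0.248 CPM. The C57BI6 groups lay apart, with treated libraries higher, and the NGS groups overlapped. Neither difference passed, at 1.18 ± 0.52 in C57BI6 (edgeR adjusted p = 0.568) and -0.86 ± 0.79 in NGS (adjusted p = 0.556), with an NGS interval of -2.55 to 0.83 that leaves even the direction unresolved at this depth.

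Cxcr6 (chromosome 9, 123806475 to 123811760, plus strand, ENSMUSG00000048521) marks tissue-resident T cells and some innate lymphocytes. C57BI6 vehicle libraries 1 to 4 held 3.42, 2.07, 2.50 and 1.64 CPM and C57BI6 ACSS2i libraries 5.55, 6.73, 3.94 and 5.76 CPM. NGS vehicle libraries 1 to 3 held 7.02, 4.38 and 4.52 CPM and NGS ACSS2i libraries 4.87, 4.92 and 5.95 CPM. In C57BI6 the treated libraries were all above vehicle, and in NGS the groups overlapped. The C57BI6 difference of 1.13 ± 0.25 did not pass (edgeR adjusted p = 0.0809), whereas it did by DESeq2 (0.00316), limma voom (0.0130), in C57BI6 libraries alone (0.0492) and without C57BI6 vehicle 1 (0.0470). In NGS it was -0.056 ± 0.33 (95% interval -0.76 to 0.64, adjusted p = 0.965). Fyco1, which overlaps Cxcr6 on the other strand, stood at 23.4 to 51.3 CPM, and the strand used in counting is not stated, so some reads of the pair cannot be told apart. Cxcl10 overlaps Art3 (0.313 to 3.57 CPM) and Cxcl16 overlaps Zmynd15 (2.46 to 15.2 CPM) in the same way.

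**Figure D2:**
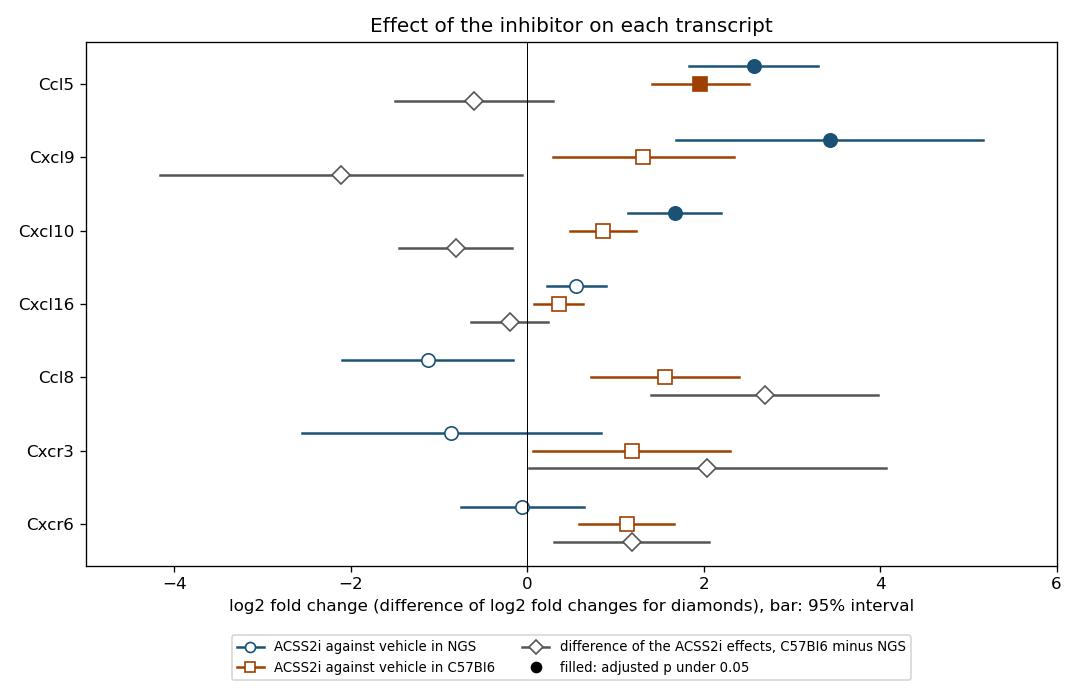
Log2 fold change of ACSS2i against vehicle for each gene in NGS (circles) and C57BI6 (squares), and the difference of the effects (diamonds), with 95% intervals; filled symbols have an edgeR adjusted p under 0.05. The filled symbols are Ccl5 in both strains and Cxcl9 and Cxcl10 in NGS, and the Ccl8 effects lie on opposite sides of 0 (1.56 in C57BI6, -1.13 in NGS).

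Counted together, 1 of the 7 genes (Ccl5) passed higher in C57BI6 and 6 did not pass, where 0.26% of all genes tested passed higher and 0.052% lower (0.312% in all). The median log2 fold change of the 7 was 1.18, against -0.012 over all genes tested. The 7 were chosen with earlier results of these data known, so setting them beside all genes is no test of them as a set. In 6 of them (all but Cxcl9) the C57BI6 groups did not overlap and treated libraries were higher, as in 7.05% of all genes. In NGS 3 genes (Ccl5, Cxcl9 and Cxcl10) passed higher and 4 did not pass, where 1.32% of all genes passed higher and 1.38% lower (2.69% in all). The NGS median was 0.55, against -0.014 over all genes tested. Groups lay apart with treated libraries higher for Ccl5, Cxcl9, Cxcl10 and Cxcl16 (10.2% of all genes) and lower for Ccl8 (8.56%). Ccl5 was 1 of 21 genes (0.121%) called higher in both strains. In bulk tissue, fewer cells of a type and less RNA per cell cannot be told apart.

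No member's effect differed between the strains by the edgeR test, which called 3 genes in all (0.0173%). The difference, C57BI6 minus NGS, was -0.60 ± 0.42 for Ccl5 (95% interval -1.50 to 0.29, adjusted p = 0.540), -0.81 ± 0.30 for Cxcl10 (-1.46 to -0.17, adjusted p = 0.278) and -2.11 ± 0.96 for Cxcl9 (-4.16 to -0.055, adjusted p = 0.352). It was 1.18 ± 0.41 for Cxcr6 (0.30 to 2.06, adjusted p = 0.260), 2.04 ± 0.95 for Cxcr3 (0.023 to 4.06, adjusted p = 0.357) and -0.20 ± 0.20 for Cxcl16 (-0.63 to 0.24, adjusted p = 0.700). At an unadjusted p under 0.05 the count was 5 of the 7, and 2383 of all genes; DESeq2 called 1 of the 7 (Ccl8) and limma voom 0. A smaller effect in one strain was therefore not shown for any member.

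The strains differed in vehicle tumours, as 32.8% of all genes did. Cxcl9 was higher in C57BI6 by 4.70 ± 0.76 on the log2 scale (edgeR adjusted p = 2.74e-04), Cxcl10 by 1.89 ± 0.23 (1.56e-05) and Ccl5 by 1.34 ± 0.32 (0.00499). Ccl8 was lower in C57BI6, at -2.97 ± 0.43 (adjusted p = 9.87e-05), and so was Cxcr6, at -0.99 ± 0.29 (0.0169). The vehicle groups of Cxcl9 and Cxcl10 lay apart with C57BI6 higher (17.5% of all genes), those of Ccl8 and Cxcr6 lay apart with C57BI6 lower (24.1%), and those of Ccl5 overlapped. Cxcl16 (0.23 ± 0.14, adjusted p = 0.251) and Cxcr3 (-0.88 ± 0.63, adjusted p = 0.306) did not pass. The Cxcr6 call was lost without NGS vehicle 1 (adjusted p = 0.112), and without the 2 libraries richest in skin genes (0.113). That of Ccl5 was lost by limma voom (0.0524). The Ccl5 call was also lost without the 4 libraries richest in skeletal muscle genes, a fit with 1 NGS vehicle library, where the difference was 0.82.

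Between treated tumours of the strains, 40.3% of all genes differed, with 23.1% of all genes higher in C57BI6. Cxcl9 was higher in C57BI6 by 2.59 ± 0.59 (edgeR adjusted p = 0.00312) and Cxcl10 by 1.08 ± 0.21 (8.26e-04), with groups that lay apart (21.7% of all genes), and Ccl5 by 0.74 ± 0.28 (0.0485). The Ccl5 call was lost without NGS vehicle 3, any 1 NGS ACSS2i library, C57BI6 vehicle 1 or 3, or C57BI6 ACSS2i 2, 3 or 4 (adjusted p up to 0.154). It was also lost with DESeq2 size factors (0.0558), by limma voom (0.0782) and without the muscle-rich (0.0936) or skin-rich libraries (0.119). Ccl8 (-0.28 ± 0.42, adjusted p = 0.620), Cxcr6 (0.19 ± 0.29, 0.631), Cxcr3 (1.16 ± 0.70, 0.204) and Cxcl16 (0.027 ± 0.14, 0.898) did not pass. These comparisons share their libraries with those of the treatment.

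Ordered by group mean, the genes fell into different sequences. For Ccl5 the order from lowest to highest was NGS vehicle, C57BI6 vehicle, NGS ACSS2i and C57BI6 ACSS2i, with both vehicle groups overlapping each other and both treated groups overlapping each other. For Cxcl9 and Cxcl10 it was NGS vehicle, NGS ACSS2i, C57BI6 vehicle and C57BI6 ACSS2i, and the middle pair overlapped in each. For Ccl8 the order was the reverse by strain, with C57BI6 vehicle lowest at 26.0 ± 13.3 CPM, then C57BI6 ACSS2i at 80.6 ± 38.3, NGS ACSS2i at 107 ± 7.29 and NGS vehicle highest at 227 ± 50.04 CPM. Cxcr6 was lowest in C57BI6 vehicle (2.41 ± 0.761 CPM), and the other 3 groups, at means of 5.25 to 5.50 CPM, overlapped.

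The other chemokine ligands went in both directions. Of 32 other ligand genes 25 were tested, and in C57BI6 0 passed higher and 1 lower, with a median log2 fold change of 0.26. At an unadjusted p under 0.05 there were 9 higher and 4 lower, and DESeq2 called 4 higher and 2 lower. Among all 17294 genes tested, 1377 had such a p in C57BI6, and DESeq2 called 331 genes there. The gene that passed was Cxcl2, which attracts neutrophils and fell from 34.5 ± 4.46 to 15.6 ± 6.99 CPM (-1.20 ± 0.23, edgeR adjusted p = 0.0422). The Cxcl2 call was kept in 4 of 14 fits that left out 1 library each. Each C57BI6 library except ACSS2i 3, and also NGS vehicle 2 and 3 and NGS ACSS2i 3, ended the call when removed (adjusted p up to 0.200). Xcl1, a product of natural killer cells and T cells, stood at 2.83 ± 0.786 and 7.28 ± 0.570 CPM in C57BI6 vehicle and ACSS2i (1.30 ± 0.26, adjusted p = 0.0759) and had no count in any NGS library.

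In NGS 0 of the 25 ligand genes passed in either direction by edgeR, and the median was -0.12 over the 24 genes above the floor. At an unadjusted p under 0.05 there were 3 higher and 4 lower, DESeq2 called 1 in each direction (Ccl4 higher, Cxcl5 lower) and limma voom 0. Among all 17294 genes tested, 3830 had such a p in NGS, and DESeq2 called 1544 genes there and limma voom 27. The smallest p-values belonged to Ccl4, an attractant of monocytes and T cells (1.56 ± 0.719 to 6.49 ± 2.21 CPM, 2.01 ± 0.59, adjusted p = 0.0734), and Cxcl5, another attractant of neutrophils (-2.49 ± 0.82, adjusted p = 0.0997). Cxcl11, the remaining ligand of Cxcr3, had 3 and 17 counts in all NGS vehicle and ACSS2i libraries (edgeR adjusted p = 0.108). In C57BI6 Cxcl11 stood at 1.16 ± 0.426 and 4.40 ± 1.66 CPM (1.85 ± 0.46, adjusted p = 0.135). Ccl11, an attractant of eosinophils named after its values were seen, had the signs of Ccl8, with 1.59 ± 0.53 in C57BI6 and -1.06 in NGS, and passed in neither (adjusted p = 0.334 in C57BI6).

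**Figure D3:**
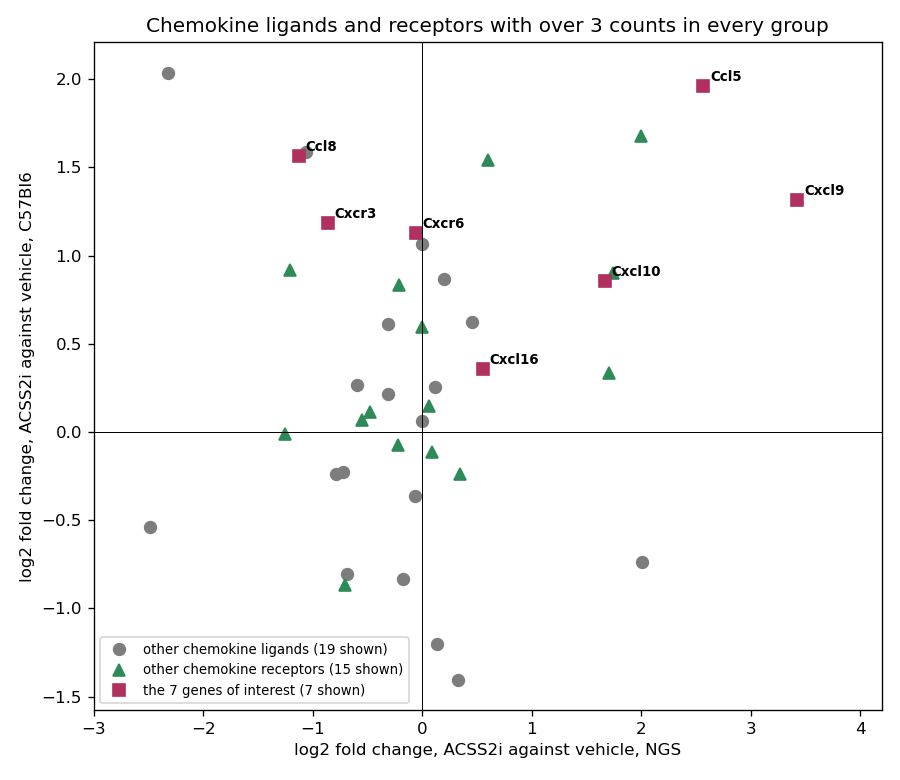
Log2 fold change of ACSS2i against vehicle in NGS (x axis) against that in C57BI6 (y axis) for the 7 members, 19 of the 25 other tested ligand genes and 15 receptor genes; ligand genes with 3 or fewer counts in a group are not drawn, and the members alone are named in the plot. Ccl5, Cxcl9, Cxcl10 and Cxcl16 lie in the upper right and Ccl8, Cxcr3 and Cxcr6 in the upper left.

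Of 21 other receptor genes 15 were tested, and 0 passed in either strain by edgeR. At an unadjusted p under 0.05 there were 3 higher and 1 lower in C57BI6 and 1 of each in NGS (1377 and 3830 of all 17294 genes tested). DESeq2 called 2 higher in C57BI6 and 0 in NGS (331 and 1544 genes in all). The medians were 0.15 in C57BI6 and -0.001 in NGS. Ccr8, a receptor of mouse Ccl8, had 1 count in each C57BI6 group and none in NGS, and was not tested. Ccr7, which guides dendritic cells and naive T cells to lymph nodes, was at 1.68 ± 0.48 in C57BI6 (adjusted p = 0.215) and 2.00 ± 0.90 in NGS (adjusted p = 0.207). Xcr1, the receptor of Xcl1 and a marker of cross-presenting dendritic cells, was at -1.26 ± 0.54 in NGS (adjusted p = 0.217).

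Of 6 genes for enzymes that cut chemokines, 0 passed in either strain by edgeR. At an unadjusted p under 0.05 there were 0 in C57BI6 and 2 lower in NGS (1377 and 3830 of all 17294 genes tested). DESeq2 called 1, Dpp4, in NGS. Dpp4, which trims Cxcl10 and other chemokines, had 68 counts in NGS vehicle and 6 in NGS ACSS2i (-3.12 ± 0.88, adjusted p = 0.0659), and Anpep was at -0.80 ± 0.28 (adjusted p = 0.117). In C57BI6 Mmp8 was at -1.01 ± 0.57 (adjusted p = 0.755) and Anpep at 0.32 ± 0.21 (adjusted p = 0.824).

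Genes of interferon signalling, known to act upstream of Cxcl9 and Cxcl10, were mostly positive in both strains. These were 18 of 19 tested genes in C57BI6 and 15 of 19 in NGS, where 47.3% and 45.9% of all genes tested were positive. In C57BI6 1 of the 19 passed higher and 0 lower by edgeR, where 0.26% of all genes passed higher, with a median log2 fold change of 0.28. There were 10 higher and 0 lower at an unadjusted p under 0.05 (1377 of all 17294 genes tested). DESeq2 called 4 higher and limma voom 5 (331 and 429 genes in all). Irf7, a transcription factor induced by type I interferon, rose from 29.5 ± 5.91 to 84.8 ± 20.8 CPM (1.46 ± 0.25, edgeR adjusted p = 0.0256). Removing any 1 of the 8 C57BI6 libraries other than ACSS2i 1 ended that call (adjusted p up to 0.112), as did leaving out the 4 libraries richest in skeletal muscle genes (0.148).

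In NGS 4 of the 19 passed higher and 0 lower by edgeR, where 1.32% of all genes passed higher, with a median of 0.33. The unadjusted counts at p under 0.05 were 11 higher and 1 lower (3830 of all 17294 genes tested). DESeq2 called 5 higher and limma voom 0 (1544 and 27 genes in all). Irf7 rose by 2.20 ± 0.32 (edgeR adjusted p = 0.00552), Stat2, a transcription factor of the type I interferon response, by 0.95 ± 0.17 (0.0150), Rela, a subunit of NF-kB, by 0.55 ± 0.11 (0.0224) and Irf9, which binds DNA together with Stat2, by 0.64 ± 0.16 (0.0437). Irf7 passed in all 14 fits that left out 1 library. Stat2 was lost without NGS ACSS2i 2 (adjusted p = 0.0503), Rela without NGS vehicle 1 or 3 or NGS ACSS2i 3 (up to 0.0654), and Irf9 in all but 4 of the 14 fits (kept without NGS vehicle 2, NGS ACSS2i 1 or C57BI6 vehicle 2 or 4; up to 0.123 otherwise). None of the 4 passed by limma voom (adjusted p from 0.0506 to 0.125) or in NGS libraries alone (0.0609 to 0.231). The calls were also lost without the muscle-rich libraries, a fit with 1 NGS vehicle library (log2 fold changes 0.59 to 2.27). Ifng, the interferon that gives Cxcl9 its older name, had no count in any NGS library, and 4 and 39 counts in all C57BI6 vehicle and ACSS2i libraries, too few to be tested.

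The genes whose levels followed Ccl5 most closely over the 14 libraries, after each strain's mean of log2(CPM + 1) was subtracted, were Stat2 (Pearson r = 0.975), Mx1 (0.970), Herc6 (0.966), Irf7 (0.965) and Oasl2 (0.958), of 12030 genes compared. Those closest to Cxcl10 were Cmpk2 (0.960), Ifi35 (0.959), Irf7 (0.959), Trim30c (0.958) and Tap1 (0.956), and those closest to Cxcl9 were Fnbp1 (0.954), Crlf2 (0.950), Atp13a2 (0.945), Ifi214 (0.943) and Slfn9 (0.940). Ccl5 and Cxcl10 had r = 0.936, Ccl5 and Cxcl9 0.868, and Ccl5 and Cxcl16 0.863. Cxcr6 (0.583), Ccl8 (0.291) and Cxcr3 (0.146) followed Ccl5 less closely. The median over all genes was 0.049 for Ccl5. The points share their treatment groups and libraries, and these values describe likeness only. With 5 CPM added in place of 1, the list for Cxcl9 kept 2 of its 5 genes.

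Markers of T cells and natural killer cells, which can carry the receptors, were measured beside these genes. In C57BI6 the summed level of 12 T cell genes was 12.8 to 23.7 CPM in vehicle and 35.6 to 74.6 CPM in ACSS2i libraries, and that of 9 natural killer cell genes 9.96 to 13.7 and 23.2 to 57.6 CPM. The medians of the lists were 1.58 and 1.72, with every gene positive, though 0 of the 12 and 0 of the 9 passed singly by edgeR. At an unadjusted p under 0.05 there were 12 and 6 (1377 of all 17294 genes tested), and DESeq2 called 5 of each list (331 genes in all). In NGS the sums were 2.53 to 3.57 and 4.01 to 9.49 CPM for T cells, and 1.15 to 2.38 and 2.81 to 6.94 CPM for natural killer cells. Of these, Cd3e, Cd3g and Cd6 among T cell genes and Gzma, Klrb1c, Klre1 and Ncr1 among natural killer cell genes had no count in any of the 6 NGS libraries. Of the 12 T cell genes, 6 were positive and 3 negative in NGS, and of the 9 natural killer cell genes 3 and 2. In both NGS groups 8 of the 12 and 6 of the 9 had 3 or fewer counts. By edgeR 0 of either list passed, with 2 of each higher at an unadjusted p under 0.05 (3830 of all 17294 genes tested). DESeq2 called 1 of each list (1544 genes in all). The NGS sums of both lists were higher in every treated than in every vehicle library, but rested on few counts. Summed over the NGS vehicle and the NGS ACSS2i libraries, T cell genes had 42 and 59 counts and natural killer cell genes 23 and 51. In NGS and C57BI6 vehicle the mean sums were 3.17 and 18.5 CPM for T cell genes and 1.74 and 12.6 CPM for natural killer cell genes. The receptor genes had the opposite order there. Cxcr6 means were 5.30 and 2.41 CPM, and Cxcr3 means 1.42 and 0.689 CPM with overlapping groups. The part of lymphocyte numbers in the levels of Ccl5, Cxcl9, Cxcl10, Cxcr3 and Cxcr6 was not tested in either strain.

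Markers of macrophages and monocytes were abundant in both strains. The sum of 11 macrophage and monocyte genes was 2441 to 3650 CPM in NGS vehicle and 3662 to 3957 CPM in NGS ACSS2i, and 2642 to 3804 and 3320 to 4324 CPM in C57BI6. By edgeR Ly6c2, a gene of inflammatory monocytes, was the one of the 11 that passed, in C57BI6 (3.17 ± 0.35, edgeR adjusted p = 0.00156) and in NGS (3.20 ± 0.46, adjusted p = 0.00552). The NGS call was lost by limma voom (adjusted p = 0.0609) and in NGS libraries alone (0.0800). It was also lost without the 4 libraries richest in skeletal muscle genes, a fit with 1 NGS vehicle library (2.58). The log2 fold change was positive for 11 of the 11 genes in C57BI6 and 9 in NGS (47.3% and 45.9% of all genes tested). In each strain 3 were higher at an unadjusted p under 0.05, where 1377 and 3830 of all 17294 genes tested had such a p. DESeq2 called 1 in C57BI6 and 2 in NGS (331 and 1544 genes in all). The sum of 7 dendritic cell genes was 17.1 to 17.4 and 20.9 to 26.8 CPM in NGS, and 43.3 to 60.5 and 53.1 to 81.0 CPM in C57BI6. Of the 5 tested genes, 2 were positive and 3 negative in NGS (median log2 fold change -0.24), and 4 and 1 in C57BI6. By edgeR and by DESeq2, 0 of the 5 passed in either strain. At an unadjusted p under 0.05, 1 was higher in C57BI6 and 1 differed in each direction in NGS. The sum of 5 neutrophil genes was 15.2 to 73.8 and 16.6 to 24.6 CPM in NGS, and 93.4 to 147 and 90.4 to 116 CPM in C57BI6. Of the 4 that were tested, 4 were negative in NGS, where Csf3r, the receptor of the growth factor G-CSF, fell (-3.14 ± 0.65, edgeR adjusted p = 0.0238). Removing NGS vehicle 1, NGS ACSS2i 2 or NGS ACSS2i 3 ended the Csf3r call, as did limma voom (adjusted p up to 0.0862). So did removing the muscle-rich libraries, which leaves 1 NGS vehicle library (-3.54). That these cells are a source of the chemokine transcripts was not tested.

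Tissue next to the tumour also varied. The sum of 8 skeletal muscle genes ran from 265 to 6475 CPM in NGS vehicle and from 14.4 to 615 CPM in NGS ACSS2i, and from 3.57 to 1026 and 6.35 to 2798 CPM in C57BI6. The sum of 6 skin genes ran from 36.4 to 1033 and 9.17 to 302 CPM in NGS, and from 4.42 to 6.83 and 5.02 to 6.26 CPM in C57BI6. The highest sums of both lists were in NGS vehicle libraries, the group in which Ccl8 was also highest. In NGS vehicle libraries 1 to 3 the muscle sums were 265, 6475 and 2808 CPM and the skin sums 1033, 54.1 and 36.4 CPM. Ccl8 stood at 203, 194 and 285 CPM there. Between vehicle groups the Ccl8 log2 fold change, C57BI6 against NGS, was -2.86 without the muscle-rich libraries, which leaves 1 NGS vehicle library. It was -3.05 without the skin-rich libraries. The part of these tissues in the Ccl8 level was not tested. The sum of 6 fibroblast genes was 7708 to 8587 CPM in NGS vehicle and 6283 to 7175 CPM in NGS ACSS2i, lower without overlap as Ccl8 was, and 5044 to 6363 and 5488 to 6946 CPM in C57BI6. Of these 6 genes, 4 were negative and 2 positive in NGS (median log2 fold change -0.39), and 1 passed by edgeR. It was Dcn, which encodes the matrix proteoglycan decorin and fell (-1.21 ± 0.22, edgeR adjusted p = 0.0148). Removing NGS ACSS2i 2 or 3 ended the Dcn call, as did a fit of NGS libraries alone (adjusted p up to 0.126). So did removing the muscle-rich libraries, which leaves 1 NGS vehicle library (-1.56). The part of fibroblasts in the Ccl8 level was not tested. Without the 4 libraries richest in muscle genes (NGS vehicle 2 and 3, C57BI6 vehicle 1 and C57BI6 ACSS2i 3), Ccl5 still passed in C57BI6 (1.91, edgeR adjusted p = 0.0390). That setting leaves 1 NGS vehicle library, assumed to vary like the other groups, and NGS Ccl5 (2.03, adjusted p = 0.146), Cxcl9 (2.61, 0.262) and Cxcl10 (1.74, 0.105) did not pass. Ccl8 remained negative in NGS (-0.93) and positive in C57BI6 (1.70). Without the 2 libraries richest in skin genes (NGS vehicle 1 and NGS ACSS2i 1) the log2 fold changes in NGS were 3.14 for Ccl5, 4.73 for Cxcl9 and 1.73 for Cxcl10, and all 3 passed (adjusted p = 0.00349, 0.0135 and 0.0139).

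**Figure D4:**
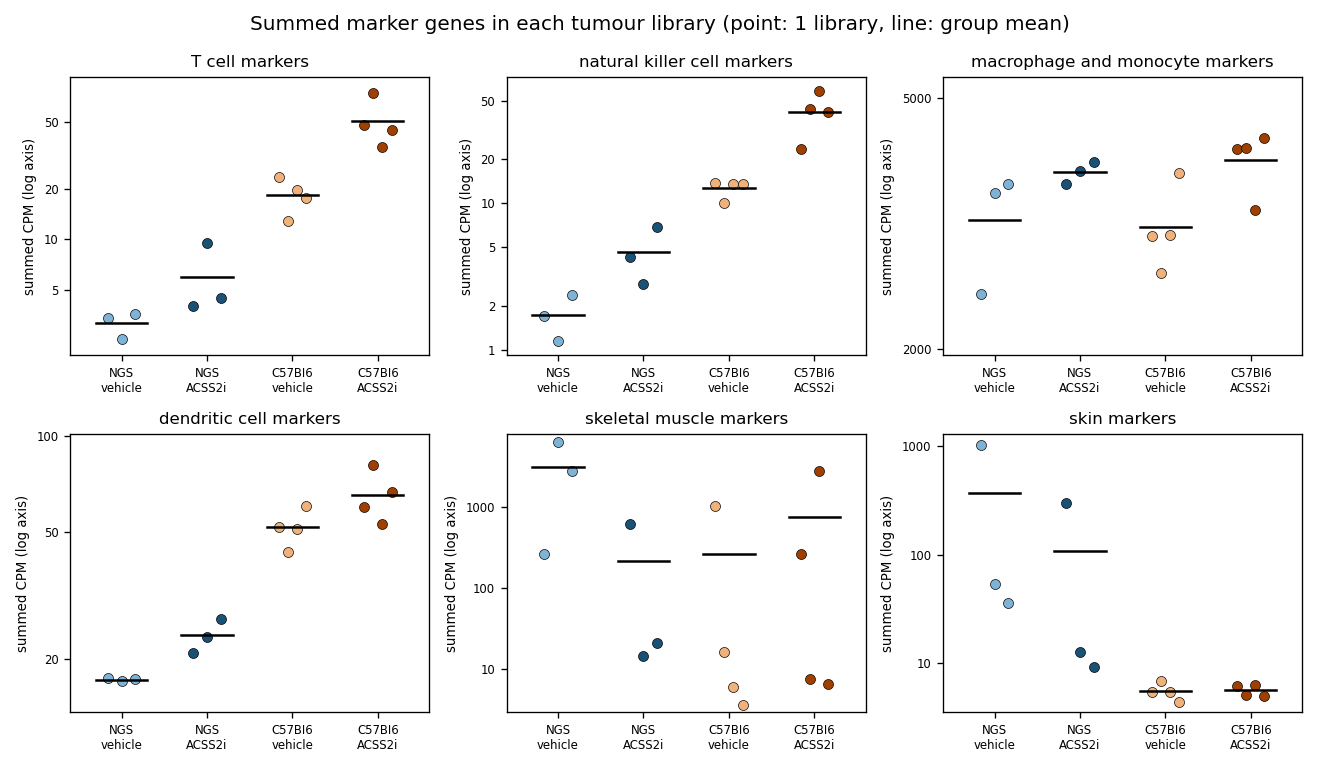
Summed CPM (log axis) of marker genes of 6 cell types or tissues in every library; points are libraries and lines are group means. T cell and natural killer cell sums are higher in C57BI6 than in NGS and, in both strains, higher with ACSS2i without overlap. The NGS sums rest on few counts, at 42 in vehicle and 59 in ACSS2i for T cells and 23 and 51 for natural killer cells. Muscle sums vary from 3.57 to 6475 CPM within and between groups.

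**Figure D5:**
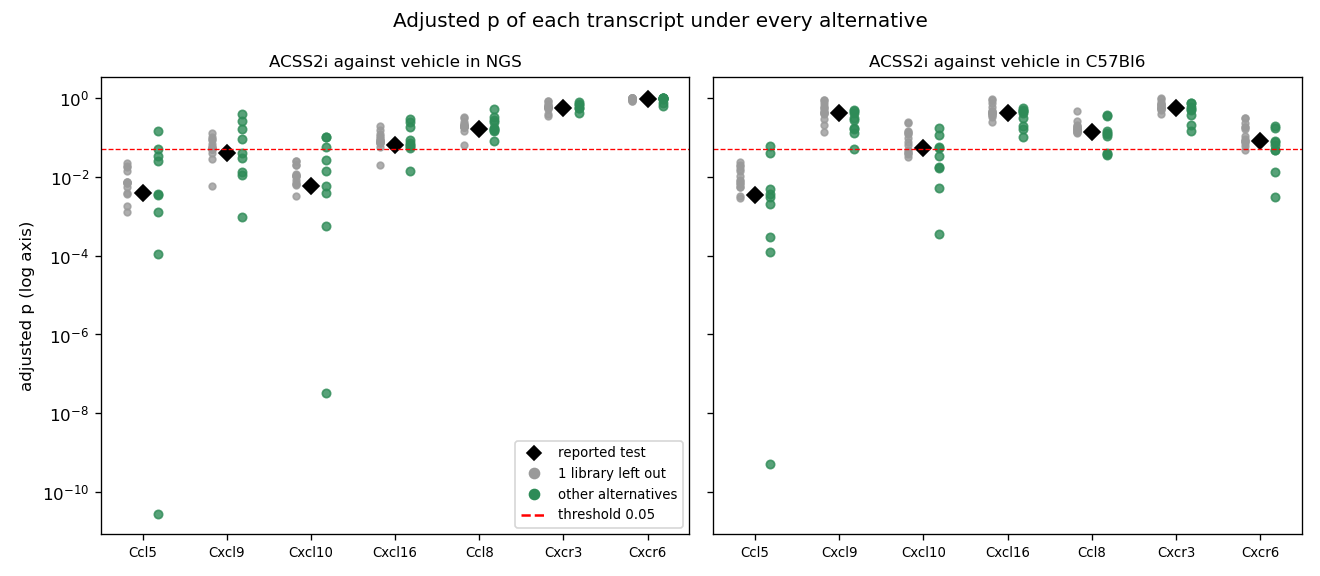
Adjusted p (log axis) of ACSS2i against vehicle for each gene in NGS (left) and C57BI6 (right): the reported edgeR test (diamonds), the fits that leave out 1 library (grey) and the other alternatives (green), with a dashed line at 0.05. For Ccl5 all grey points lie under the line in both strains, and the highest green points lie above it, at 0.146 in NGS and 0.0597 in C57BI6.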

How the data were processed

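Raw whole-number counts per gene for 14 bulk tumour libraries were used as deposited by the authors. Per the submitters' processing notes, build mm10, RSEM 1.2.3 and DESeq2 were involved, in roles the notes leave out, so the counts may be rounded RSEM estimates. The aligner, annotation and strand setting are not given in the sources used here. Symbols and positions came from GENCODE M21 on mm10, which matched 51596 of 51789 genes. Mitochondrial genes are not in the table.

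The labels' strain and treatment made the groups. After edgeR's filterByExpr, 17294 genes were scaled by TMM and tested with the quasi-likelihood test (edgeR 4.0.16, R 4.3.3) in 1 model of 4 groups with no block (common biological coefficient of variation 0.236). Tests were two-sided, with Benjamini-Hochberg adjustment over all genes tested and a threshold of 0.05. The method was also run on simulated counts with planted changes, drawn from 1 mean per gene shared by all groups. That simulation lacked the wide strain differences of these data, and its outcome is not reported here. CPM were computed over library totals, and values after ± are SDs for CPM and SEs for log2 fold changes. Replicate pairs had a chi-square of 6.62 to 25.4 per degree of freedom, so no library was a copy of another. Intervals and floors from counts cover counting error only, since no molecular identifiers are described.

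The members and gene lists were chosen with earlier results of these data known. From each pathway list the text names the genes past the threshold, up to 4 by smallest p, or the 2 with the smallest p where fewer than 2 passed; some genes that this rule picks are not reported here. For Ccl5, Cxcl9 and Cxcl10 it names the 5 genes with the highest Pearson r. Alternatives were DESeq2 1.42.0 (test and size factors), limma 3.58.1 voom with sample quality weights, no filter, only the groups compared, a replicate block, counts thinned to 2846161 per library, other scaling and pseudocounts, and leaving out each library. Leaving out the 4 libraries richest in muscle genes and the 2 richest in skin genes was added after seeing the data. The muscle setting leaves 1 NGS vehicle library, which limits every comparison with that group.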

Additional observations from a re-analysis of the deposited data

Results flagged for a closer look

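Ccl8 was the one gene of the 7 whose treated libraries all lay on opposite sides of vehicle in the strains, below it in NGS (98.9 to 113 CPM against 194 to 285) and above it in C57BI6 (53.2 to 136 CPM against 6.73 to 36.9). The difference of the log2 fold changes was 2.69 (C57BI6 minus NGS). It was tested as an interaction and did not pass by edgeR (adjusted p = 0.171, with 0.0787 to 0.246 over the fits without 1 library) or limma voom (0.198), and passed by DESeq2 (0.0150). No library of a C57BI6 group passed Dixon's test for standing apart from the other 3 in any of the 7 genes (14 groups of 4 tested, critical value 0.829). Groups of 3 were not tested. The largest ratios were 0.748 for Cxcl9 (vehicle, highest library), 0.746 for Ccl8 (ACSS2i, highest) and 0.725 for Ccl8 (vehicle, lowest). With 4 values the test finds only wide gaps, so it cannot show that no library stood apart.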

How the results depend on the processing

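The 54 genes called in C57BI6 became 331 by DESeq2, 429 by limma voom, 112 with no filter, 266 in a fit of C57BI6 libraries alone, 33 with counts thinned to the smallest library and 117 without the 2 skin-rich libraries. Members called there, 1 in the reported test, became 4 by DESeq2, 4 by voom, 3 with no filter, 3 in C57BI6 alone, 2 thinned and 2 without the 4 muscle-rich libraries. In NGS the 466 genes became 1544 by DESeq2, 27 by voom, 9 in NGS alone, 18 without the muscle-rich and 1073 without the skin-rich libraries, and the 3 members became 0 by voom, 1 in NGS alone and 0 without the muscle-rich libraries. The 3 genes whose effects differed between strains became 292 by DESeq2, 0 by voom, 7 with no filter and 34 without the skin-rich libraries, and the 0 members became 1 by DESeq2. Between vehicle groups 5666 genes became 3700 thinned and 2532 without the muscle-rich libraries.

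Leaving out 1 library gave 15 to 122 genes and 1 to 2 members in C57BI6, 118 to 1743 genes and 2 to 4 members in NGS, 1 to 62 genes and 0 members for the difference, 4608 to 6715 genes and 4 to 5 members between vehicle groups, and 5949 to 7237 genes and 2 to 3 members between treated groups. The C57BI6 count moved most without NGS ACSS2i 2 (122) and C57BI6 vehicle 2 or ACSS2i 2 (15 each), the NGS count without NGS ACSS2i 1 (1743) or 2 (118), and the count for the difference without NGS ACSS2i 1 (62). Cxcr6 in NGS changed sign by voom (0.0611), without the skin-rich libraries (0.246), and in 2 of the fits without 1 library (-0.160 to 0.191, above 0 without NGS vehicle 1 or NGS ACSS2i 2). Cxcl16 between treated groups changed sign without the skin-rich libraries (-0.0875) and in 2 of the fits without 1 library (-0.0881 to 0.177, below 0 without NGS ACSS2i 1 or C57BI6 ACSS2i 2). Neither value passed in any of these fits. The cause of these shifts was not tested.

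With the replicate number as a block, 9 genes and 0 members passed in C57BI6, where Ccl5 had an adjusted p of 0.0597, and 254 genes passed in NGS, where Cxcl9 was at 0.0923. Ccl5 between treated groups (0.101), Cxcl2 and Irf7 in C57BI6 and Csf3r, Irf9, Rela and Stat2 in NGS (0.0508 to 0.0937) also lost their calls, and the block turned Cxcl16 between treated groups to -0.0131. Equal numbers had correlations of deviations from -0.141 to 0.144 in C57BI6 and -0.00766 to 0.0836 in NGS, so the numbers were not taken to pair the libraries. The fit of only the groups compared is the reported one for the difference and was not repeated. The depth of the NGS libraries limits Cxcr3, with 1 to 9 counts each.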
